A study of Mus musculus with 7 samples.

Results

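The 10 genes described here encode AP-1 subunits and close relatives: Fos, Fosb, Fosl1, Fosl2, Jun, Junb, Jund, Jdp2, Batf and Batf3. Open chromatin at these genes was taken as every ATAC-seq region whose midpoint lay inside the mm10 gene body, or within 100 kb of it with that gene as the nearest of 21887 protein-coding genes. Position was the sole criterion, and it gave 251 of the 344401 regions found when overlapping peaks of all 7 libraries were joined. Their peaks numbered 1033 of 975394. The regions fell to Fos (50), Jdp2 (49), Fosl2 (45), Jun (36), Batf3 (25), Batf (19), Fosb (14), Fosl1 (7), Jund (5) and Junb (1). The last region inside the distance limit, chr4:95148585-95149144 at 96642 bp from Jun, and the first outside it, chr4:95151624-95153019 at 100099 bp from Jun, were called in the same 6 libraries.

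AP-1 is a family of leucine-zipper dimers that bind a short, nearly palindromic DNA element. Jun proteins can pair with each other or with Fos proteins, whereas Fos proteins need a partner, and Jdp2 and the Batf proteins form dimers with Jun proteins that often repress or redirect AP-1. In macrophage precursors, RANKL signals through MAP kinases to AP-1, and Fos is required in mice for precursors to become osteoclasts, the cells that resorb bone.

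The cells were RAW264.7, a mouse monocyte and macrophage line with the ability to form osteoclast-like cells. There were 2 libraries of cells given RANKL (50 ng/ml) and I-BET (500 nM), an inhibitor of BET bromodomain proteins, 2 of cells given RANKL alone, 1 of cells given I-BET alone (numbered replicate 2) and 2 of untreated cells. Treated cells were taken at 4 h; the labels give no time for untreated cells and no genetic change in any group. The source label names bone marrow although the cells are a line, and nothing says whether replicates came from separate cultures, so they may be technical. ATAC-seq marks DNA that a transposase can reach, and it does not measure transcripts or protein.

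Peak lists held 117175 to 166369 peaks, and the read depth behind them is not given. Untreated replicate 1 stood apart: of the regions it called 42.9% were its own alone, while for untreated replicate 2 that share was 8.95%. All 8 macrophage markers examined, among them Spi1 and Csf1r, had a peak at the start or a gene end in all 7 libraries, and so did 5 of 6 osteoclast markers; Calcr, the calcitonin receptor, had one in untreated replicate 1 alone. The T cell markers Cd3e, Cd3d and Cd8a, the B cell factor Pax5, the fibroblast marker Pdgfra and the erythroid Hbb-bt had none in any library, while Cd4 and Col1a1 had one in all 7.

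The start windows of 4 members are shown because they span the range found below. Jun had the strongest start peak. Jund had a related element and a high-ranking start region, whose strongest summit lay beyond the window. Fos is the early-response gene most tied to osteoclasts, and Batf had no peak over its start window in any library. Each runs from 250 bases before to 50 after the gene start in RefSeq on GRCm38.p6, the assembly that mm10 represents: chr4:95052173-95052472 on the minus strand for Jun, and chr8:70697489-70697788, chr12:85473640-85473939 and chr12:85686470-85686769 on the plus strand for Jund, Fos and Batf. Capitals mark matches to the 8-base AP-1 element TGANNTCA, in which N is any base; both strands were searched, as they were for the 7-base element TGANTCA, and no match to one form can start at the same base as a match to the other.
Jun: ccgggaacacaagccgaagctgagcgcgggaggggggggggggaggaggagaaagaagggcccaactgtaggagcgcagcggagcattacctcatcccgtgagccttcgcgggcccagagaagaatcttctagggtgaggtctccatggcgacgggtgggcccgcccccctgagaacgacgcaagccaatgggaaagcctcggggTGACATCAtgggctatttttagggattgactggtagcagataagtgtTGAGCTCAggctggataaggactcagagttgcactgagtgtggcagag
Jund: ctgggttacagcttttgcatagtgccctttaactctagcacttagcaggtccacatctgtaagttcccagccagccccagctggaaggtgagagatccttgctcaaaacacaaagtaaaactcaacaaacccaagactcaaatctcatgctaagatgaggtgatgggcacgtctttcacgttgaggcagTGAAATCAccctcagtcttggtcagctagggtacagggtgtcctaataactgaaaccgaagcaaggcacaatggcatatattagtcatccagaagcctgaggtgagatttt
Fos: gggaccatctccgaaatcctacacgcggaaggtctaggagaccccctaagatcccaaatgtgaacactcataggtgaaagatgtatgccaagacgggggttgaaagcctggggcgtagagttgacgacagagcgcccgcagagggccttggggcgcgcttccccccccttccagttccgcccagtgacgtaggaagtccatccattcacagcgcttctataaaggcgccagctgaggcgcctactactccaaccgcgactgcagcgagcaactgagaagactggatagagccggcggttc
Batf: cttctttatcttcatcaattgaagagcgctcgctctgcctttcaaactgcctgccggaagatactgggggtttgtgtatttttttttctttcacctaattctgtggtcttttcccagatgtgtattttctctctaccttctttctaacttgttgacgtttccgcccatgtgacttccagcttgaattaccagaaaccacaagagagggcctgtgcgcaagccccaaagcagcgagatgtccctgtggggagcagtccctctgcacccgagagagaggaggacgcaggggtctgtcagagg
Windows were found for 9 of the 10 members, Fosl1 excepted. The Jun window held TGACATCA, 45 to 38 bases before the start, and TGAGCTCA, from base 2 to base 9 after it. Jund held TGAAATCA, 61 to 54 bases before its start. The windows of Fos, Batf and the 5 remaining members held neither form. Over 21263 windows of protein-coding genes 13.2% held the 8-base form, 6.99% the 7-base form and 19.1% either. A match is a run of letters and not evidence of a bound factor.

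Start regions were open without RANKL. Fos, Fosb, Fosl2, Jun, Junb, Jund, Jdp2 and Batf3 each had a region over the start in all 7 libraries, whereas Batf had none over its start in any library. Strength was read as the place of a region among the 43170 regions called in all 7 libraries, ranked within each library by the largest −log10 p of its peaks; these peak values are the authors' own, and only their order within a library was used. Such shared regions made up 55 of the 251 member regions (21.9%), against 12.5% of all regions.

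In the Fos family, the Fos start lay at percentile 90.5 and 88.3 with RANKL and I-BET, 92.1 and 91.5 with RANKL, 80.0 with I-BET and 94.0 and 92.1 in untreated cells. The I-BET library was the lowest of the 7 at this start, but there is 1 such library, and it was not tested against untreated cells. Fosl2, which encodes Fra-2, kept within 90.7 and 95.4 in every library. Fosb, an early-response relative of Fos, lay at 89.7 and 68.9 with RANKL and I-BET, 81.3 and 75.1 with RANKL, 80.0 with I-BET, and 92.6 and 67.3 in untreated cells. Replicates of 1 treatment thus differed more than treatments did. Its strongest summit lay 1279 and 1276 bases past the start in RANKL+I-BET replicate 2 and RANKL replicate 2, but 156 to 195 bases upstream of it in the others. The Fosb percentiles therefore do not all rank the same summit. At Fosl1, which encodes Fra-1, the region over one gene end (chr19:5446934-5449233) ranged from 39.5 in RANKL replicate 1 to 69.8 with I-BET.

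By median percentile, the Jun family had the strongest starts. The Jun start region (chr4:95049694-95055725) lay at percentile 99.8 and 98.6 with RANKL and I-BET, 99.6 and 97.7 with RANKL, 98.3 with I-BET, and 99.3 and 97.7 in untreated cells. Its summit lay 81 to 104 bases upstream of the start in all 7 libraries. Junb, an early-response Jun protein whose single 13289 bp region (chr8:84973756-84987044) also reaches the neighbouring gene Prdx2, lay at 98.0 and 98.6 with RANKL and I-BET, 98.1 and 97.4 with RANKL, 96.5 with I-BET, and 96.7 and 97.0 in untreated cells. Its strongest summit lay upstream of the start. Jund, a Jun protein made constantly in many cells, had its strongest summit 848 to 1147 bases downstream of the start and lay between 89.8 and 99.2. Neither Jun nor Jund separated cells given RANKL from those without it, whereas all 4 libraries with RANKL placed the Junb region above all 3 without, by a narrow margin.

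Among the partners, Jdp2, a repressor of AP-1, had a 13287 bp region over its start windows. It lay between 61.6 (RANKL replicate 1) and 86.7 (untreated replicate 1). Its strongest summit lay 4592 and 4620 bases past a start in RANKL+I-BET replicate 2 and RANKL replicate 2, and from −28 to 118 in the others. These percentiles therefore do not all rank the same peak. The start of Batf3, a gene needed in mice for a class of dendritic cells, was weak, at 1.75 to 37.5, with RANKL+I-BET replicate 2 lowest and untreated replicate 1 highest. Batf, a Jun partner best known from lymphocytes, had no peak over its start window. A weak peak just past that window, chr12:85686789-85687017 (−log10 p 3.60), was called in RANKL+I-BET replicate 2 alone. A strong region inside the gene, chr12:85704459-85706287, had its midpoint 18652 bp past the start. That region lay at 85.8 and 97.3 with RANKL and I-BET, 91.3 and 97.4 with RANKL, 97.3 with I-BET, and 84.8 and 98.8 in untreated cells. It was high in all libraries, with the 3 replicate 1 libraries lowest. In order of their medians the starts ran Jun, Junb, Jund, Fosl2, Fos, Fosb, Jdp2, Fosl1 and Batf3; the ranges of neighbours overlapped all along this order except between Fosl1 and Batf3.

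**Figure D1:**
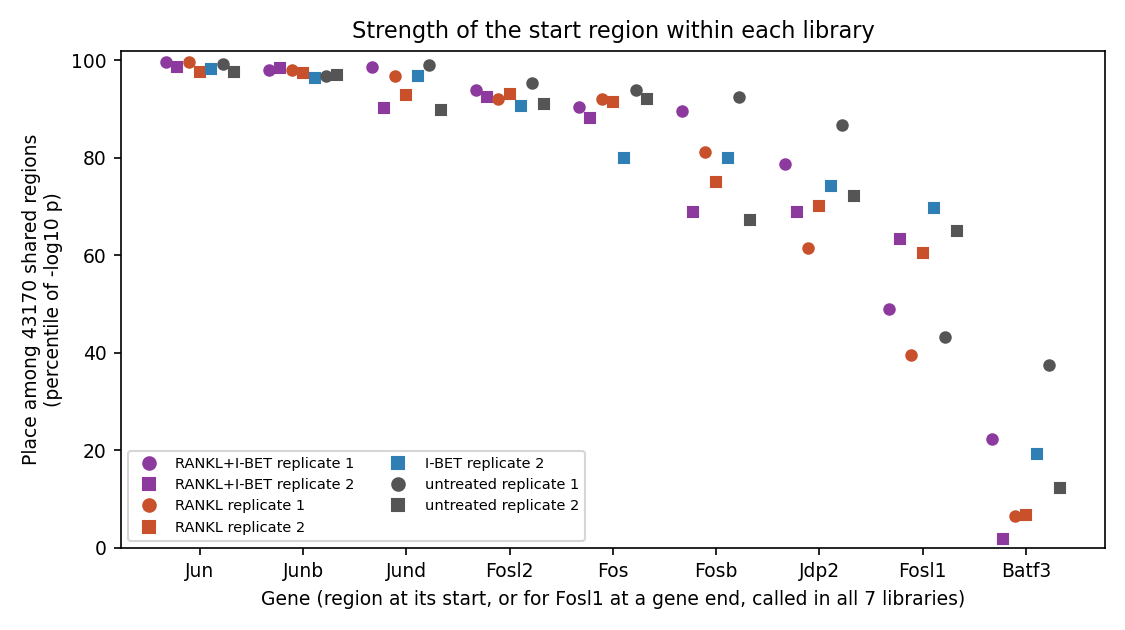
Percentile of the region at each gene's start among the 43170 regions called in all 7 libraries (vertical axis), for 9 genes (horizontal axis), with 1 point per library, colours for treatments and shapes for replicate numbers; Batf has no start region. Jun lies at 97.7 to 99.8 in all libraries, while Batf3 lies at 1.75 to 37.5.

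By a rule of likeness, the 3 genes whose start regions had rank profiles over the 7 libraries most like that of Fos were Gpd2 (Pearson r = 0.977), H2az2 (r = 0.976) and H2-Q10 (r = 0.962), out of 9211 genes. For Jun they were Shld3, Trappc13 and Trim23 (r = 0.995 each), which share 1 region. With 7 libraries that share their replicate differences, and with so many genes to choose from, these are descriptions.

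RANKL against untreated cells asked which regions were open with RANKL and not without it. At these genes 7 of the 204 regions called in any of the 4 libraries were called in both RANKL libraries and neither untreated library (3.43%), against 3.37% of all regions in this comparison. The share at the AP-1 genes was close to that of the genome. The reverse class held 3 of 204 (1.47%), against 0.748% of all regions, and 19 regions (9.31%, against 8.48% of all) were mixed, called in 1 library of each group. With 2 libraries a group these counts carry no p-value. Jun had 4 of the 7, Jdp2 2 and Fosl2 1; Fos, Fosb, Fosl1, Junb, Jund, Batf and Batf3 had none.

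A stricter pattern, called in all 4 libraries with RANKL and in none of the 3 without, held 5 of the 251 member regions (1.99%), against 0.529% of all regions. The reverse pattern held none at these genes, against 0.0244% of all regions. Jun had 3 of the 5, and Fosl2 and Jdp2 had 1 each. The count of 5 was 5 to 7 when any 1 library was left out, while that over all regions rose from 1823 to between 1994 and 4716. When peaks needed a −log10 q of at least 5, the member count fell to 1, at Jun. Over all regions the count fell to 1414, so the member count fell more steeply. The class of 7 held 3 with that minimum. It was 43 when RANKL replicate 1 was left out, 30 when RANKL replicate 2 was and 23 when untreated replicate 2 was. Over all regions that class went from 8594 to 3797 with the minimum, and to 33470, 55157 and 31604 without these libraries.

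The nearest of the 3 Jun regions, chr4:95045099-95045603, lies 3684 bp beyond the 3′ end of the gene. Its peaks had −log10 p of 13.7 and 15.6 with RANKL and I-BET and 11.5 and 4.99 with RANKL, and there was no peak with I-BET or in untreated cells. The next, chr4:95025741-95026345, lies 22992 bp beyond the same end, with −log10 p of 3.65 and 19.3 with RANKL and I-BET and 7.10 and 8.29 with RANKL. On the upstream side, chr4:95089930-95090366 lies 37926 bp from the gene, with −log10 p of 2.15 and 9.06 with RANKL and I-BET and 5.16 and 4.99 with RANKL. All 3 are short, 437 to 605 bp, and most of their peaks were weak, the lowest −log10 p in any list being 2.01.

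The Fosl2 region, chr5:32163301-32163863, lies 5742 bp downstream of the gene, with −log10 p of 3.12 and 11.6 with RANKL and I-BET and 5.16 and 5.77 with RANKL. The Jdp2 region, chr12:85659313-85660206, lies 19881 bp downstream of Jdp2 and before Batf, with −log10 p of 7.43 and 17.5 with RANKL and I-BET and 9.98 and 5.77 with RANKL. Both were without a peak in the I-BET library and in both untreated libraries.

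The other 2 of the 7 RANKL-only regions were also called in the I-BET library. One, chr12:85592914-85593860, lies 5268 bp upstream of the RefSeq body of Jdp2, with −log10 p of 10.4 and 29.0 with RANKL and I-BET, 5.16 and 4.99 with RANKL and 2.99 with I-BET. The other, chr4:95127930-95128424, lies 75954 bp upstream of Jun, with 7.43 and 30.5 with RANKL and I-BET, 7.10 and 10.1 with RANKL and 3.79 with I-BET. In the reverse direction, chr4:95092441-95092907, 40452 bp upstream of Jun, was called in the 2 untreated libraries alone (4.14 and 3.94). At Fosl2, chr5:32125442-32125969 (3.50 and 7.16 in untreated cells) and chr5:32131692-32132328 (2.89 and 5.48) were called in both untreated libraries and neither RANKL library. RANKL+I-BET replicate 2, the library with the longest list, called both of these Fosl2 regions as well, with 6.30 and 7.63.

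**Figure D2:**
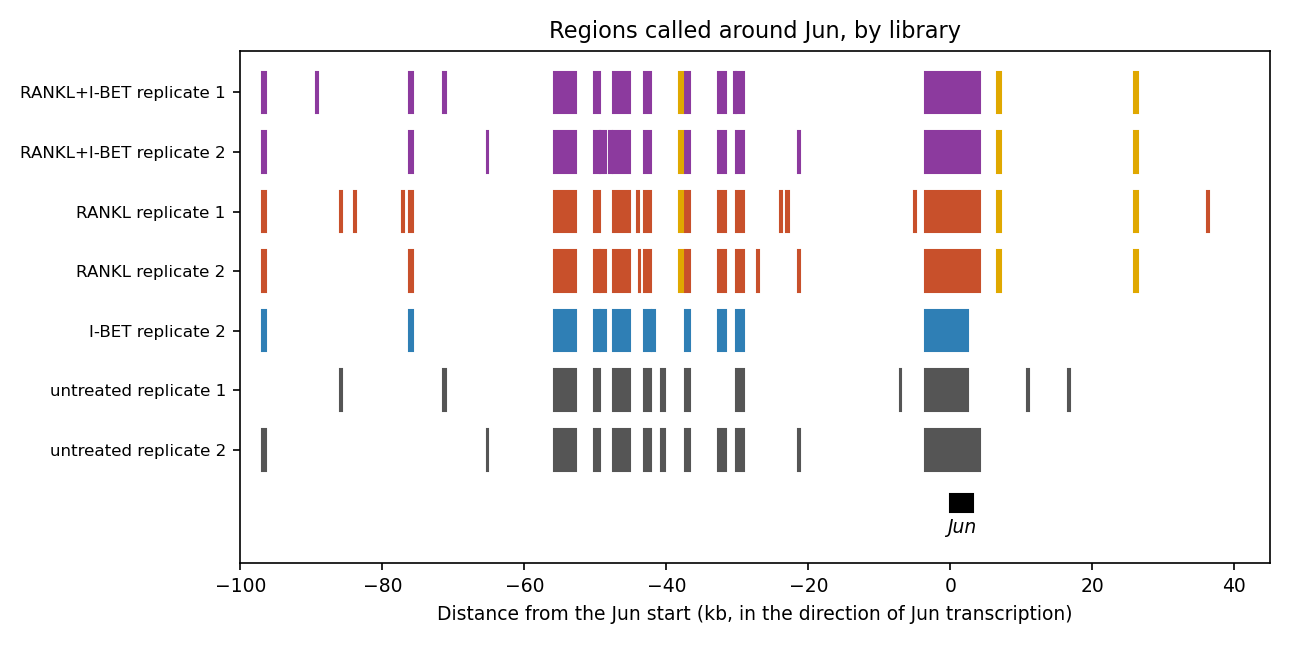
Regions called around Jun in each library (rows), by distance from the Jun start in kb along the direction of transcription (horizontal axis); blocks are regions, and yellow blocks are the 3 called in all 4 libraries with RANKL and none of the 3 without. The 3 yellow regions lie on both sides of the gene and appear in the upper 4 rows alone.

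Ranks of regions that every library called gave a second view of the same comparison, with differences in normal scores (ranks within a library turned into standard normal values) tested by limma. No member region and no region at all passed an adjusted p of 0.05 (0.0% of 43170 higher and 0.0% lower in RANKL cells). Without adjustment, p was under 0.05 for 1 of 55 member regions (1.82%) and 1391 of all regions (3.22%). The median difference was 0.03 over the 55 member regions and −0.02 over all. In simulated ranks with noise drawn independently for each library, a shift of 1 normal score was recovered in 6% of regions and a shift of 2 in 72%. A shift of 1 was thus mostly missed there. In the real libraries those of the same replicate number deviated together, so these shares need not hold for them.

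The member region with the smallest p was again at Jun. At chr4:95101598-95102360, 49756 bp upstream of the gene, the percentile was 32.6 and 40.8 with RANKL and I-BET, 38.5 and 40.3 with RANKL, 8.45 with I-BET, and 14.6 and 10.5 in untreated cells. All 4 libraries with RANKL lay above all 3 without, and the groups did not overlap. The difference was 0.89 in normal scores for RANKL against untreated cells (SE 0.30, limma adjusted p = 0.986). The 4 next smallest p in this comparison belonged to Batf3 chr1:191118686-191120197 (difference 0.62), Batf3 chr1:191131207-191132591 (0.53), Jund chr8:70693246-70694367 (0.69) and the Jdp2 start region (−0.44), with p of 0.0705 to 0.134. The Jdp2 difference turned to 0.062 when regions were ranked by summed peak length.

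In 5 of the 55 shared member regions (9.09%) all 4 libraries with RANKL ranked above all 3 without, against 4.39% of all shared regions, a count chosen after the data had been seen. They were the Jun region above, the Junb start region, Jdp2 chr12:85595766-85596731, and the 2 Batf3 regions just named. In 3 (5.45%) all 4 ranked below, against 4.83% of all, at Batf chr12:85670027-85670778, Batf3 chr1:191109953-191112133 and Fosl2 chr5:32111661-32114253. The gap was wide at the Jun region, where the lowest library with RANKL stood at 32.6 and the highest without at 14.6. It was small at Jdp2, where the lowest with RANKL stood at 37.6 and untreated replicate 2 at 32.9. At Junb it was smaller still, with RANKL replicate 2 at 97.36 and untreated replicate 2 at 96.95. At Batf the sides were almost level, with RANKL replicate 2 at 28.63 and untreated replicate 2 at 28.67.

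**Figure D3:**
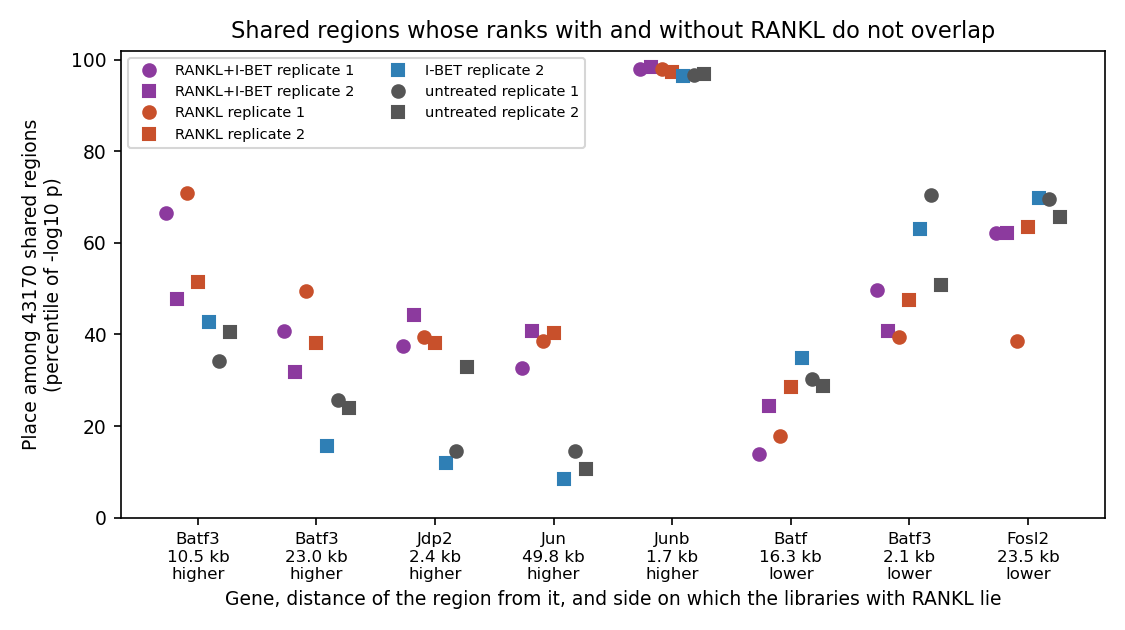
Percentile among the 43170 shared regions (vertical axis) for the 8 member regions in which the 4 libraries with RANKL lie all above or all below the 3 without (horizontal axis, with gene and distance), 1 point per library, colours for treatments and shapes for replicate numbers. The Jun region has the widest gap among those with higher ranks, with 32.6 to 40.8 against 8.45 to 14.6.

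Fos itself showed its largest spread at a downstream region, chr12:85512913-85514825, 36594 bp past the gene, a region singled out after its values were seen. Its percentile was 32.6 and 97.0 with RANKL and I-BET, 44.0 and 95.7 with RANKL, 32.0 with I-BET, and 3.95 and 73.1 in untreated cells. The groups overlapped, and each replicate 2 library given RANKL lay far above its replicate 1. Within each replicate number, both RANKL treatments ranked above untreated cells, and the I-BET library lay below the untreated library of its own number. The difference of RANKL against untreated cells was 1.35 (SE 0.98, limma adjusted p = 0.986). With a replicate block, tried as an alternative, limma called this region, 1 of 24 called among 43170 (0.0556%). No label marks the replicate numbers as a batch, so the fit without the block was kept as the main result. For RANKL with I-BET against RANKL the difference without the block was −0.06 (SE 0.98). In the replicate 2 libraries of both RANKL treatments this was the strongest Fos peak, while in both replicate 1 libraries with RANKL the strongest lay upstream of Fos at chr12:85454481-85456276. That upstream region lay at 84.1 or above in all 7 libraries.

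RANKL with I-BET against RANKL asked whether the BET inhibitor altered what RANKL opened. At the AP-1 genes no region was called in both RANKL libraries and neither library with RANKL and I-BET, against 0.571% of all regions, and 2 of 214 were called in both libraries with RANKL and I-BET and neither with RANKL (0.935%), against 1.86% of all. Both were weak regions at Fos: chr12:85454008-85454240, 19766 bp upstream, with −log10 p of 4.80 and 2.95, and chr12:85493666-85494077, 16597 bp downstream, with 4.21 and 4.31. No other library called either. With lists cut to equal length neither was left. The count was 45 without RANKL+I-BET replicate 1, 9 without RANKL+I-BET replicate 2 and 6 without RANKL replicate 2. Over all regions it went from 4577 to 45773, 27670 and 9322. The reverse count, 0 here, was 8 without RANKL+I-BET replicate 2, and 12 and 19 without RANKL replicates 1 and 2. Over all regions the reverse count went from 1402 to 14097, 16753 and 41332.

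All 7 member regions called in both RANKL libraries and neither untreated library were called in both libraries with RANKL and I-BET too. Over all such regions in the genome the share was 37.4%. The RANKL and untreated libraries chose these regions, and the libraries with RANKL and I-BET alone gave the share. Of all such regions, RANKL+I-BET replicate 1 called 39.9% and replicate 2 called 85.2%. The difference between members and genome was not tested. In the shared regions limma called none of 43170 (0.0% higher and 0.0% lower with RANKL and I-BET). Without adjustment p was under 0.05 for 0 of 55 member regions and 36 of all regions (0.083%). That share is far below 5%. The fit counted differences shared by a replicate number as spread, so these counts cannot show that I-BET had no effect. The median difference over members was −0.01, against 0.00 over all. The 5 smallest p, 0.267 to 0.396, belonged to Jun chr4:95081321-95082356 (difference −0.295), Batf3 chr1:191132655-191133369 (0.66), Fosl2 chr5:32111661-32114253 (0.29), Jdp2 chr12:85587710-85590202 (−0.365) and the Jdp2 start region (0.24). Ranked by summed peak length, the differences at that Jun region and at Jdp2 chr12:85587710-85590202 turned to 0.04 and 0.925, and without RANKL replicate 1 that at Fosl2 turned to −0.032. A test of whether the RANKL effect differed with and without I-BET, added after the data had been seen, rests on 1 I-BET library assumed to vary like the other groups. It called no region, with p under 0.05 for 0 of 55 member regions and 482 of all (1.12%). These p-values do not show that the groups were alike.

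For RANKL with I-BET against untreated cells, which shares libraries with both comparisons above, 11 of 217 member regions were called in both libraries with RANKL and I-BET and neither untreated library (5.07%), against 3.73% of all regions. The reverse class held 1 (0.461%), against 0.458% of all; it was the untreated-only Jun region given above. By gene the 11 were 4 at Jun, 2 each at Fos, Fosl2 and Jdp2 and 1 at Batf3. Apart from regions already described, they included Batf3 chr1:191096997-191097721, 1054 bp upstream of the gene (−log10 p 7.43 and 15.0 with RANKL and I-BET, 10.1 in RANKL replicate 2, 5.57 with I-BET), and Fosl2 chr5:32119140-32120386, 16708 bp upstream (4.21 and 35.8, and 10.1 in RANKL replicate 2). The count of 11 was 5 at a −log10 q of at least 5 and 7 with lists of equal length. It was 69 without RANKL+I-BET replicate 1, 21 without RANKL+I-BET replicate 2 and 23 without untreated replicate 2. Over all regions the count went from 9729 to 5012, 6187, 61708, 33245 and 30664 in the same order. In the shared regions limma called none (0.0% higher and 0.0% lower), and p was under 0.05 without adjustment for 1 of 55 member regions and 960 of all (2.22%). That 1 was the Jun region at chr4:95101598-95102360, with a difference of 0.81 (SE 0.30, limma adjusted p = 1). The next 4, with p of 0.117 to 0.185, were Batf3 chr1:191132655-191133369 (1.09), Batf3 chr1:191118686-191120197 (0.51), Jdp2 chr12:85595766-85596731 (0.52) and Batf3 chr1:191109953-191112133 (−0.40).

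The I-BET library without RANKL called 87 of the 251 member regions (34.7%), against 35.9% of all regions. The untreated libraries called 102 (40.6%, against 35.9% of all regions) and 100 (39.8%, against 30.0%). No member region was called in all 3 libraries with I-BET and none of the 4 without, against 0.142% of all regions, or in all 4 without and none of the 3 with, against 0.00755%. At Jun it called 12 regions, against 13 in each untreated library, 22 and 18 with RANKL, and 17 and 18 with RANKL and I-BET. Of the 10 genes Jun was the one at which every library with RANKL called more regions than every library without it, a pattern picked out after the data had been seen. The same held for 418 of 19155 protein-coding genes with a region (2.18%) and for 155 of the 5060 with at least 20 regions (3.06%), and 1 of the 5 members with at least 20 regions. Over all regions the libraries with RANKL called 108292 to 161180 and those without 103433 to 123781.

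**Figure D4:**
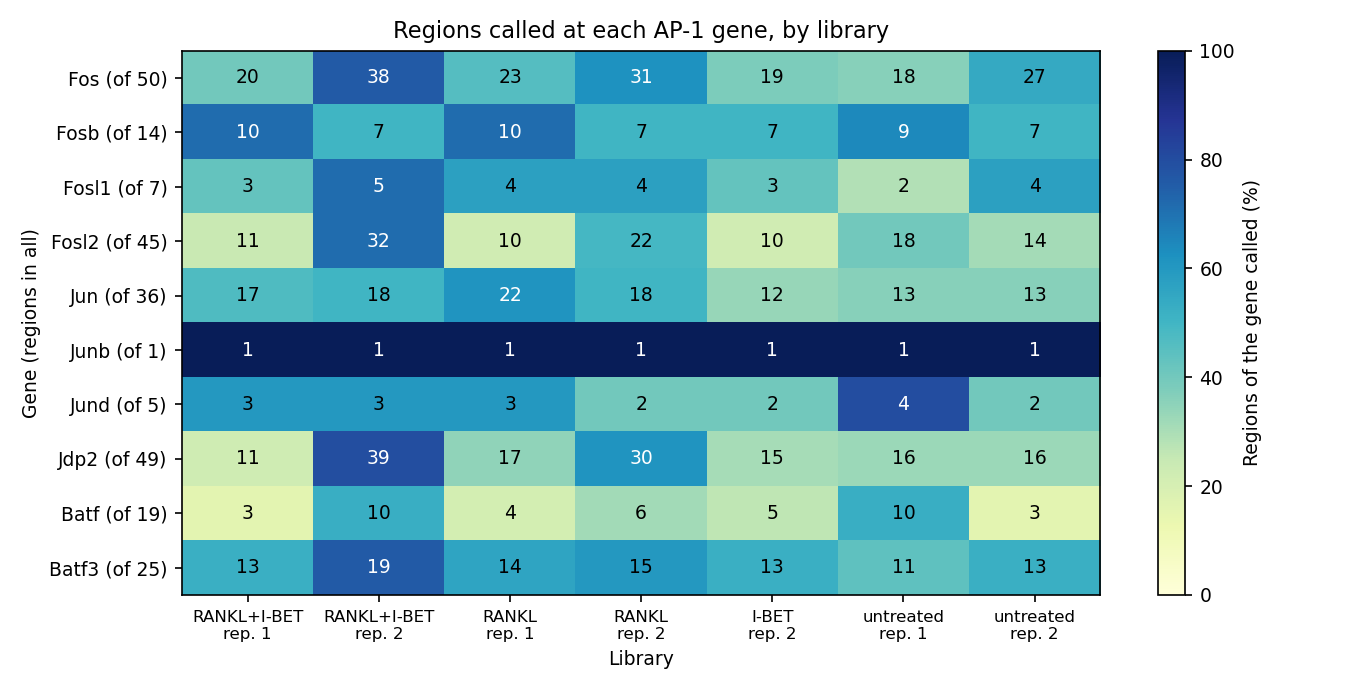
Regions called at each of the 10 genes (rows, with the number of regions in all) in each of the 7 libraries (columns); numbers are regions called and shading is their percentage of the gene's regions. Jun has 17 to 22 in the libraries with RANKL and 12 or 13 in those without, while Jdp2 has 39 and 30 in the replicate 2 libraries given RANKL.

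Jdp2, Fos, Fosl2, Batf and Batf3 showed a split by replicate number instead. At each, both replicate 2 libraries given RANKL called more regions than the replicate 1 library of the same treatment. At Jdp2 the regions called were 11 and 39 with RANKL and I-BET, 17 and 30 with RANKL, 15 with I-BET, and 16 and 16 in untreated cells. At Fosl2 they were 11 and 32 with RANKL and I-BET, 10 and 22 with RANKL, 10 with I-BET, and 18 and 14 in untreated cells. Fosb went the other way, with 10 and 7 in both treatments with RANKL. Among member regions 37 of 251 (14.7%) were called in both replicate 2 libraries given RANKL and in neither replicate 1 library given RANKL, against 5.11% of all regions. Of these, 16 were at Jdp2 (of 49), 9 at Fos (of 50), 6 at Fosl2, 2 each at Jun, Batf and Batf3, and none at Fosb, Fosl1, Junb and Jund. The opposite pattern, both replicate 1 libraries and neither replicate 2 library, held 3 member regions (1.20%), against 1.01% of all. RANKL+I-BET replicate 2 had the longest peak list, while RANKL replicate 2 had a shorter list than RANKL replicate 1 (132626 against 154069 peaks). Jdp2 had 61 peaks in RANKL replicate 2 and 26 in RANKL replicate 1. Of all peaks in these lists, 55.6% and 44.6%, in that order, had a −log10 q of at least 5. Where I-BET was given with RANKL, that share was 74.0% for number 2 and 48.1% for number 1. The part of depth or of other replicate differences in this split was not tested.

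**Figure D5:**
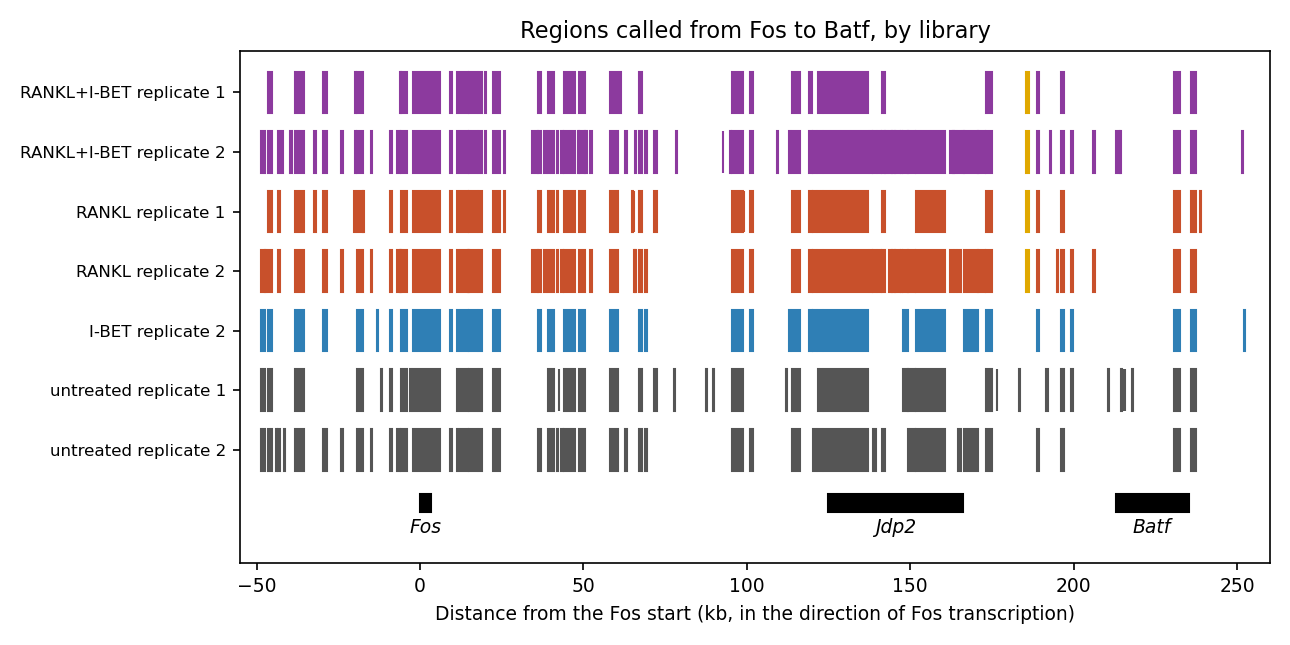
Regions called at Fos, Jdp2 and Batf, neighbours on chromosome 12, in each library (rows), by distance from the Fos start in kb (horizontal axis); black bars are genes, and the yellow block is the Jdp2 region called in all 4 libraries with RANKL and none of the 3 without. The stretch at and after Jdp2 is filled in the replicate 2 libraries given RANKL and broken in the others.

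By the rule of assignment, gaps to neighbouring genes limit how much sequence can fall to a member. Junb, with gaps of 2097 and 10027 bp to its neighbours, had 1 region. Jun, with 69880 bp on one side and 505257 bp on the other, had 36, none of them with its midpoint inside the gene. Counts did not follow the gaps alone, as Fosl2, with 51521 and 74850 bp, had 45. Over all members 54 of 251 regions (21.5%) lay inside the gene, against 56.9% of all regions. Member regions were also longer (median 471 bp, against 308 bp) and less often called in 1 library alone (41.8%, against 55.6%). These differences were not tested.

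Other genes around AP-1 were counted by list. The 26 bZIP partners, such as the ATF, MAF and C/EBP proteins, had 596 regions. Of these, 21.6% were called in all 7 libraries, against 12.5% of all regions. For RANKL against untreated cells 9 of their 460 regions (1.96%) were called in both RANKL libraries and neither untreated one, and 2 (0.435%) the other way. Over all regions in this comparison these shares were 3.37% and 0.748%. The list of 24 upstream kinases and factors had 17 of 537 (3.17%) and 7 (1.30%), with 4 at Mef2c and 3 each at Mef2a, both MEF2 transcription factors, and Mapk10, which encodes the kinase JNK3. For RANKL with I-BET against RANKL the bZIP partners had 7 of 477 regions (1.47%) in the direction of RANKL with I-BET and 1 in the other. The upstream genes had 13 of 537 (2.42%) and 2. Over all regions in this comparison the shares were 1.86% and 0.571%. Cebpb, a C/EBP factor active in macrophages, had 2 regions in the first direction in both of these comparisons, and 1 untreated-only region. For RANKL with I-BET against untreated cells the bZIP partners had 17 of 496 (3.43%) and 3, and the upstream genes 17 of 561 (3.03%) and 5. Over all regions in this comparison the shares were 3.73% and 0.458%. Limma called no shared region of either list in any of the 3 comparisons. Without adjustment p was under 0.05 for 1, 0 and 1 of 129 bZIP partner regions and for 5, 1 and 5 of 130 upstream regions. The order is RANKL against untreated, RANKL with I-BET against RANKL, and RANKL with I-BET against untreated. Over all shared regions the shares in that order were 3.22%, 0.083% and 2.22%.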

How the data were processed

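ATAC-seq was analysed from 1 peak list per library, 7 in all. Per the submitters' processing notes, the authors' tools were MACS2, Bowtie2, SAMtools, Picard, bedtools, cutadapt and FastQC and the build was mm10; versions and settings are not given in the sources used here. Each deposited list gives start, end and summit positions, a score, a fold (ratio of pileup to background) and, as −log10, both p-value and q-value. These are the authors' values per peak and served only for description, ranking and filtering inside a single list. The lowest deposited −log10 p was 2.008. A peak called in 1 library and not in another may differ through depth, which is not given.

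Peaks of all libraries that overlapped or touched were joined into regions, and a region counted as called where any peak of the library covered 1 bp or more of it. Regions went to the nearest protein-coding gene body of a RefSeq table for GRCm38.p6, and start windows came from RefSeq on the same assembly. A planned distance to the start was replaced by gene ends for Fosl1. Of member peaks, 5 lay in regions whose midpoint fell to another gene, and 29 other peaks lay in member regions.

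Regions called in both libraries of a group and neither of the other were counted for 3 comparisons. Ranks of the 43170 shared regions were turned into normal scores and fitted with limma 3.58.1 in R 4.3.3, all 7 libraries in 1 model of 4 groups with 3 residual degrees of freedom, trend and Benjamini-Hochberg adjustment over all shared regions. The fit was tested on simulated data with independent noise for each library. Other steps used Python 3.11.15 with pandas 2.3.3 and NumPy 2.4.6, and figures matplotlib 3.10.9. Alternatives tried were a minimum −log10 q of 5, all lists cut to the 117175 best peaks, a cover of 50% or more, a limit of 50 kb to the gene, windows of 500 bp at summits, other ranked values, no trend, a replicate block and leaving out each library.

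The text names all 10 members, their start regions, every region of a class called in 1 group only, and the 5 member regions with the smallest p in each comparison. Members, lists and rules were chosen with earlier results of these data known.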

Additional observations from a re-analysis of the deposited data

How the results depend on the processing

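Call counts at the AP-1 genes moved with the peaks used. For RANKL against untreated cells, the 7 RANKL-only regions became 3 at a −log10 q of at least 5. Over all regions that class went from 8594 to 3797. The 3 untreated-only regions became 0 at that minimum, 1 with lists of equal length and 0 with 50% cover. Over all regions the untreated-only class went from 1910 to 109, 2044 and 1140. For RANKL with I-BET against RANKL, the 2 regions became 1 at that minimum and 0 with equal lists (4577 to 1815 and 2517 over all regions). The reverse count of 0 became 3 with summit windows of 500 bp (1402 to 2613 over all regions). For RANKL with I-BET against untreated cells, the 11 became 5 and 7 under the same first 2 settings (9729 to 5012 and 6187 over all regions). The reverse count of 1 became 0 at the minimum, 0 with 50% cover and 2 with summit windows. Over all regions the reverse count went from 1194 to 6, 717 and 2228. The 5 regions called in all libraries with RANKL and none without became 1 at the minimum, while over all regions 1823 became 1414. The causes of these moves were not tested. Leaving out 1 library gave 7 to 43 and 3 to 35 regions for RANKL against untreated cells (RANKL-only, then untreated-only). Over all regions these counts were 10849 to 55157 and 3223 to 62764. RANKL with I-BET against RANKL gave 3 to 45 and 0 to 19, and over all regions 9322 to 45773 and 1740 to 41332. RANKL with I-BET against untreated cells gave 13 to 69 and 1 to 31, and over all regions 13090 to 61708 and 1402 to 60297. The pattern of all libraries with RANKL gave 5 to 7, and over all regions 1994 to 4716. A group of 1 library is easier to call alone. Ranked by summed peak length, the difference at the Jdp2 start region for RANKL against untreated cells turned to 0.062, and those for RANKL with I-BET against RANKL at Jun chr4:95081321-95082356 and Jdp2 chr12:85587710-85590202 turned to 0.04 and 0.93. At Fosl2 chr5:32111661-32114253 the difference for that comparison ran from −0.032 without RANKL replicate 1 to 0.604 without RANKL replicate 2. Counts of ranked member regions stayed at 0 when any library was left out (0 to 0) and under the other settings but 1, the replicate block: with it limma called 24 of the 43170 shared regions (0.0556%), all higher in RANKL than in untreated cells, and 1 of them was a member region, Fos chr12:85512913-85514825 (difference 1.35, SE 0.20, limma adjusted p = 0.0411); for RANKL with I-BET against untreated cells it gave 1.29 (adjusted p = 0.241). Same-numbered libraries deviated together (correlations 0.42, 0.58 and 0.61 for untreated with RANKL, untreated with RANKL and I-BET, and RANKL with RANKL and I-BET), but with 2 numbers and no batch in the labels they were not treated as pairs. Region counts have no test and so no block. Read depth is not given, so its part was not tested.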
